A study of Mus musculus with 4 samples.

Results

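The 9 genes described here, Slco1c1, Slco1a4, Mfsd2a, Abcb1a, Slc7a5, Cldn5, Ocln, Spock2 and Slc6a6, belong to the blood-brain barrier and its transport systems, and they are 9 of the 21861 genes in the count matrices. They were chosen by their levels in endothelial cells (EC) against other cell types and by their levels in EC at the 2 ages. Both of these contrasts are therefore given as a description, and no support is drawn from them.

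Tumors of 4 mice of the genotype hGFAP-cre::TP53Fl/Fl::lsl-MYCN were profiled by droplet-based 3′ single-cell RNA sequencing, mouse 4 (labelled female) and mouse 5 (male) at 43 days (P43) and mouse 6 (male) and mouse 7 (female) at 70 days (P70). In all 4 mice the human GFAP promoter drives Cre in neural precursor cells. There it removes p53 and turns on human MYCN with a firefly luciferase (FLUC) reporter, so that the vessel cells are cells of the host. The paper gives olfactory bulb or tumor tissue as the source and describes P43 as early onset. The share of EC from tissue outside the tumor is not known at either age. Vessels of tumor-free mice are not analysed here. The age of a mouse, the stage of its tumor and that share cannot be told apart. The tumors were digested with papain, erythrocytes were lysed and dead cells were removed before loading, without a sort for vessel cells.

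Endothelial cells of brain capillaries are sealed by tight junctions and take up few vesicles, so that most nutrients have to cross through transporters and many drugs are pumped back into the blood. Wnt signals from neural cells, read through β-catenin in the endothelium, are known to induce and keep this state. Cldn5 and Ocln are proteins of the tight junction, and Mfsd2a carries lipids into the brain and holds vesicle transport down. Slco1c1 and Slco1a4 carry thyroid hormones and organic anions, Slc7a5 large neutral amino acids and Slc6a6 taurine. Abcb1a is a drug efflux pump, P-glycoprotein, and Spock2 is a secreted proteoglycan of the extracellular matrix.

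In mm10 (GRCm38), with positions from GENCODE vM21, all 9 are protein-coding genes. Slc6a6 (chr6:91684053-91759066, plus strand), Slco1c1 (chr6:141524368-141570177, plus) and Slco1a4 (chr6:141805440-141856199, minus) lie on chromosome 6. Mfsd2a lies at chr4:122946850-122961188 (minus), Abcb1a at chr5:8660077-8748575 (plus) and Slc7a5 at chr8:121881150-121907694 (minus). Spock2 lies at chr10:60106219-60135198 (plus), Ocln at chr13:100496507-100552718 (minus) and Cldn5 at chr16:18776847-18778262 (plus). Abcb1b, a close paralog of Abcb1a at chr5:8798147-8866315, held 5, 3, 8 and 0 UMIs in the EC of mice 4 to 7, and reads that the 2 paralogs share could not be told apart here.

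Promoters of 7 of the 9 genes were found in RefSeq (GRCm38.p6), and 3 of them are shown because Wnt target genes were measured in the same EC. The 250 bases before the start were searched on both strands for CTTTGA, the core of the TCF/LEF motif through which β-catenin acts, which 13.8% of 32851 promoters of that length hold. It is present before Mfsd2a (first base at -115 from the start), before Abcb1a (at -153 and -58) and before Spock2 (at -133), and capitals mark it below. These letters are not in the windows of Slco1c1, Slco1a4, Ocln and Cldn5, and a match is not a measured binding site. A FOX motif (TGTTTAC, 3.17% of promoters) was found before Abcb1a, whereas a SOX motif (ACAATGG, 3.02%) and a combined FOX and ETS motif (AACAGGAA, 2.25%) were found before none of the 7. The RefSeq start of Abcb1a, which follows base 8567090 of chr5, lies far upstream of the GENCODE start at base 8660077. Its matches belong to the RefSeq start, and the bases before the GENCODE start were not searched.
Mfsd2a promoter, chr4:122961189-122961438, minus strand: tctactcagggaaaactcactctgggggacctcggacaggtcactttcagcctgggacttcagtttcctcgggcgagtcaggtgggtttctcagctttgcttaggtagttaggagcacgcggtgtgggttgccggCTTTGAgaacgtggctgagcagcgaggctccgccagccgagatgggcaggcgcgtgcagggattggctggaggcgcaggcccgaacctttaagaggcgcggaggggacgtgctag
Abcb1a promoter, chr5:8566841-8567090, plus strand: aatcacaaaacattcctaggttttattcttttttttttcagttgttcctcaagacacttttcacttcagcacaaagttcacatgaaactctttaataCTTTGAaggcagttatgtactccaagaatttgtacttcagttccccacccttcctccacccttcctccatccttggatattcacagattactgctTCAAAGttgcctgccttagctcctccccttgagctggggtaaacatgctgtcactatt
Cldn5 promoter, chr16:18776597-18776846, plus strand, without the motif: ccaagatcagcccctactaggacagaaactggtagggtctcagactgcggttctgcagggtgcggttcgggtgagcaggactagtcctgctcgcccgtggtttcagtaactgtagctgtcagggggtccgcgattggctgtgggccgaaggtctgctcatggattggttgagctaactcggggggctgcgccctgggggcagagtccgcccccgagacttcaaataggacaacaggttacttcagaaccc

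The libraries held 1739 to 3693 barcodes and 13106786 to 40621958 unique molecular identifiers (UMIs), which count captured mRNA molecules, and 1 to 3 barcodes were shared by any 2 libraries. After filtering, 1456 to 3469 cells per mouse were kept and clustered without the 9 genes and the listed barrier genes. The EC class held 418 and 498 cells at P43 (mice 4 and 5) and 291 and 36 cells at P70 (mice 6 and 7), with 961018, 1960444, 1177028 and 71581 UMIs. All 15 endothelial markers, among them Pecam1, Cdh5 and Tie1, were detected in the EC of each mouse. Against their labels, the EC of mouse 4 held 205 CPM (UMIs of a gene scaled to a common total of UMIs) of Y-linked RNA and those of mouse 5 held 0.51 CPM, while mouse 6 (202 CPM) and mouse 7 (0.0 CPM) matched. Sex was not used in the contrast of ages. Why the labels of the P43 mice go against this RNA was not tested, and the ages are taken as labelled.

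The EC differed between mice in more than the 9 genes, and the part of these values in the results below was not tested. Median UMIs per EC were 1830.0, 3644.5, 2037.0 and 1103.5 in mice 4 to 7. Hemoglobin and other erythroid genes (5 genes) summed to 2511 and 2157 CPM in the EC at P43 against 44.2 and 0.0 CPM at P70. Mature oligodendrocyte markers (8 genes) reached 1346 and 966 CPM at P43 against 534 and 824 CPM at P70, and myeloid markers (12 genes) 44.7 and 22.4 against 254 and 112 CPM. Dendritic cell markers (10 genes) were at 48.9 and 42.9 CPM at P43 and at 331 and 307 CPM at P70, and AC-like markers (8 genes) at 101 and 82.6 against 263 and 307 CPM. In mouse 7, 9 of the dendritic cell markers and 6 of the AC-like markers were at 0. The dendritic cell list holds Fscn1, which is also a leading gene of subcluster 3 of the EC. Its part in these sums was not tested. Mural markers (12 genes) were at 395, 64.3, 138 and 83.8 CPM, with 2, 5, 2 and 8 of them at 0. FLUC and human MYCN together were at 38.5, 28.6, 38.2 and 112 CPM in EC, compared to 828, 3167, 3133 and 1773 CPM in OL-like tumor cells. The 15 endothelial markers themselves summed to 17810 and 18980 CPM at P43 and to 12650 and 14240 CPM at P70.

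Cldn5 was the most abundant of the 9 in EC, at 6417 and 6319 CPM at P43 (mice 4 and 5) compared to 4753 and 3646 CPM at P70 (mice 6 and 7). UMIs of the 3′ assay tag 1 end of each molecule, so that these levels do not scale with gene length. Spock2 followed with 3004 and 3487 CPM at P43 and 2136 and 1383 CPM at P70. For both genes each P43 mouse was above each P70 mouse, the lowest value being that of mouse 7 with its 36 cells. Ocln, the other tight junction gene, was far less abundant, at 337 and 276 CPM at P43 and 144 and 97.8 CPM at P70, and its level in mouse 7 rests on 7 UMIs.

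The organic anion and hormone carriers were both higher in each P43 mouse. Slco1c1 was at 2196 and 1889 CPM at P43 and at 1146 and 1104 CPM at P70, and Slco1a4 at 1826 and 1823 CPM against 1189 and 880 CPM. The efflux pump Abcb1a was at 1267 and 1294 CPM at P43 and at 559 and 601 CPM at P70, with a gap between ages wider than either pair. Mfsd2a was at 607 and 601 CPM against 290 and 224 CPM, again without overlap. For these 4 genes the P43 mean was 1.82, 1.76, 2.21 and 2.35 times the P70 mean.

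The taurine carrier Slc6a6 had the widest difference between ages, 1305 and 1779 CPM at P43 against 270 and 629 CPM at P70, or 3.43-fold. Its order within P70 ran against that of Cldn5, Spock2 and Ocln, as mouse 6 and not mouse 7 was lowest. The amino acid carrier Slc7a5 was the exception among the 9, at 697 and 578 CPM at P43 and 709 and 489 CPM at P70. Its ages overlapped, with the highest and the lowest level both at P70. Thus 8 of the 9 genes were lower in both P70 mice than in both P43 mice and none was higher in both. Among the 8785 genes tested in EC, 32.6% were lower in both P70 mice and 18.4% were higher in both, so the rule of choice and this background stand beside the count.

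**Figure D1:**
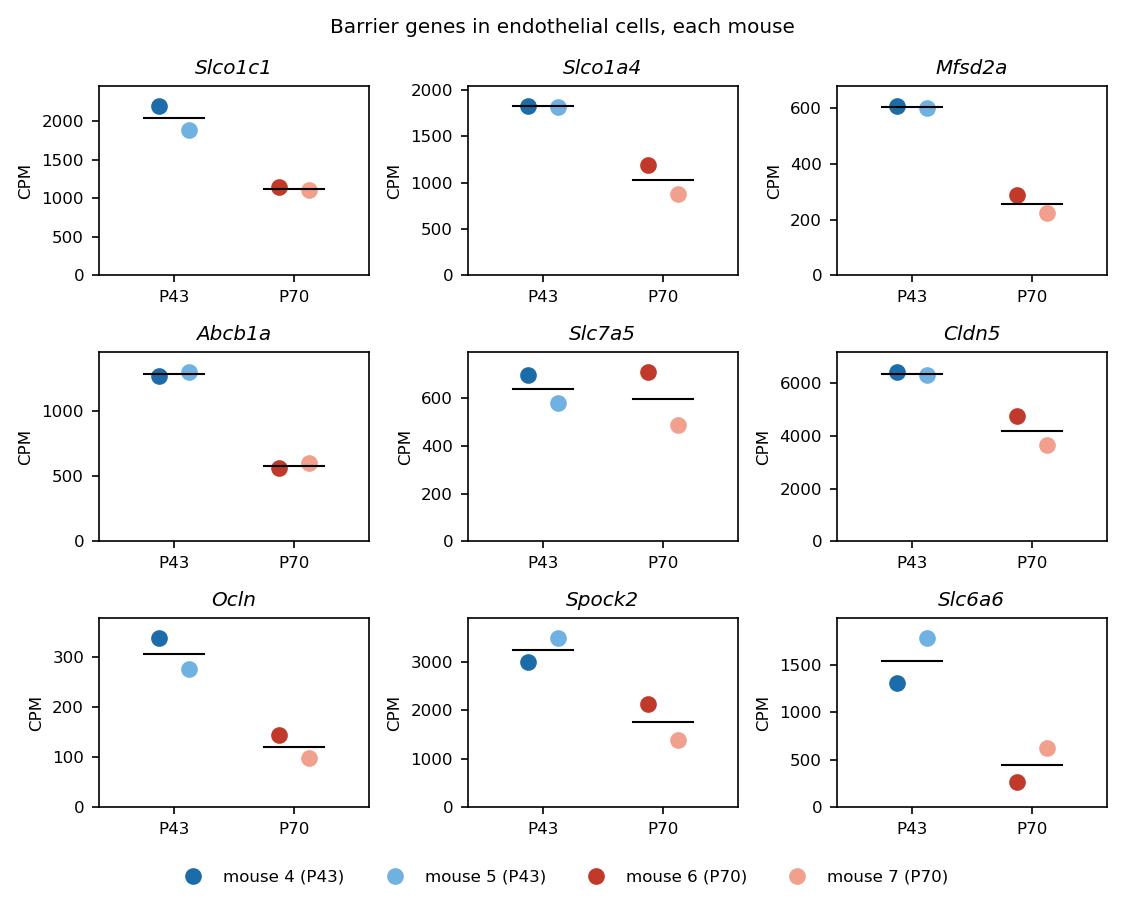
Levels of the 9 genes (CPM, linear axes from 0) in the EC of each mouse, P43 in blue and P70 in red, with a black line at the mean of 2 mice. Both P43 points lie above both P70 points in every panel but that of Slc7a5.

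On summed counts, edgeR's quasi-likelihood test with Benjamini-Hochberg adjustment over all 8785 genes put 5 of the 9 genes past the limit of 0.05, all lower at P70. All 9 passed the filter on low counts. In the same fit 3.55% of genes were called lower and 6.07% higher, and nothing is read from the members' count since they were chosen on this contrast. Slc6a6 fell by 1.97 on the log2 scale (SE 0.307, adjusted p = 0.000804). Abcb1a fell by 1.08 (SE 0.213, adjusted p = 0.00433), Ocln by 1.05 (SE 0.229, adjusted p = 0.00865) and Mfsd2a fell by 1.04 (SE 0.217, adjusted p = 0.00631). Slco1c1 fell by 0.79 (SE 0.227, adjusted p = 0.0411).

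The other 4 genes did not pass. Spock2 had a log2 change of -0.77 (SE 0.271, adjusted p = 0.0974), Slco1a4 of -0.70 (SE 0.239, adjusted p = 0.0884) and Cldn5 of -0.52 (SE 0.266, adjusted p = 0.279). For Slc7a5 it was 0.08 (SE 0.234, adjusted p = 0.9). The median of the 9 was -0.79, beside -0.25 for the 15 endothelial markers, of which Tek and Ly6c1 were called lower, and -0.03 for all genes tested. An exact permutation test of 2 against 2 mice cannot go below p = 0.33.

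The count of called members depended on single mice. It was 1 without mouse 4 (Slc6a6), 2 without mouse 5 (Slc6a6 and Ocln), 8 without mouse 6 and 7 without mouse 7, the mouse with 36 EC. DESeq2 called 3 of the 9 (Mfsd2a, Abcb1a and Slc6a6). Only 1 (Mfsd2a) was called in endothelial subcluster 0 alone, and 2 (Mfsd2a and Slc6a6) when subcluster 3 was left out.

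**Figure D2:**
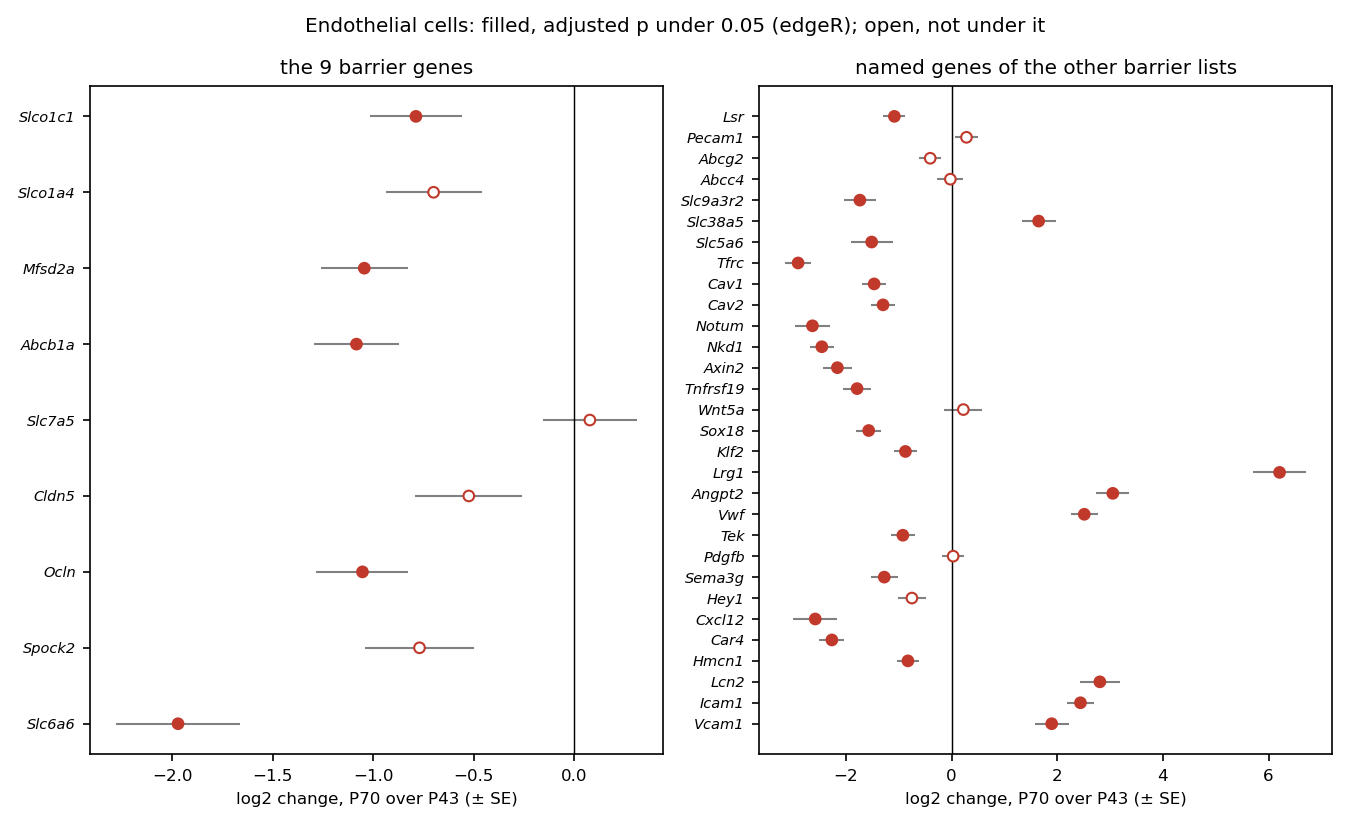
Fitted log2 change in EC, P70 over P43, with its standard error, for the 9 genes (left) and genes of the other barrier lists that the text names (right). Filled points have an adjusted p under 0.05 in edgeR. Of the 9, 8 lie below 0 and 5 are filled. Esm1, which had no UMI at P43, is not drawn.

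The share of EC with at least 1 UMI was compared after thinning each cell to 2000 UMIs, which kept 199, 397, 148 and 9 EC. Abcb1a was found in 93.5% (95% Clopper-Pearson interval 89.1 to 96.5) and 87.9% (84.3 to 90.9) of EC at P43, compared to 56.8% (48.4 to 64.9) and 4 of 9 cells (44.4%, 13.7 to 78.8) at P70. Slc6a6 was found in 77.4% and 84.9% of EC at P43 and in 21.6% (15.3 to 29.1) and 33.3% (7.49 to 70.1) at P70. These intervals cover counting error only.

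Cldn5 was found in nearly each EC of all mice, at 99.5%, 100.0%, 98.6% and 88.9%. Slco1c1 was at 97.0% and 94.7% at P43 against 72.3% and 22.2% at P70, and Slco1a4 in 189 of 199 cells and at 94.0% against 75.0% and 33.3%. Mfsd2a was at 64.3% and 64.7% against 39.2% and 44.4%. Both P70 mice were below both P43 mice for each of these 4 genes. The values of mouse 7 rest on 9 of its 36 EC, 5 of them from subcluster 3, to which 6 of its 36 EC belong. In mouse 7 Slco1c1 was at 42.9% and Slco1a4 at 61.9% of 21 EC thinned to 1000 UMIs, and each was at 69.4% of all 36 EC without thinning. Ocln was at 49.7% and 42.8% against 23.6% and 0 of 9 cells in mouse 7, where the exact interval reaches 33.6%. Slc7a5 was at 67.8% and 61.7% against 65.5% and 44.4%, and mouse 6 lay between the P43 mice.

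An EC of mouse 4 or mouse 5 held a mean of 7.42 or 7.28 of the 9 genes at this depth, compared to 5.37 in mouse 6 and 3.67 in mouse 7. Without thinning, the means were 6.32, 7.71, 5.58 and 5.25, and mouse 4 with its shallower cells included moved towards the P70 mice. Thinning also changed the mix of EC. It kept 1 of 127 cells of subcluster 1 in mouse 4. Of subcluster 3 it kept 8 of 31 cells in mouse 4, 26 of 26 in mouse 5 and 30 of 43 in mouse 6. Myeloid cells held 0.328 to 0.441 at the thinned depth, most of it Slc6a6, which was at 178 to 210 CPM in them. Abcb1a was found in 0 of 34, 0 of 58, 2.52% and 2.25% of Myeloid cells and Cldn5 in 0.0% to 2.94%, far below the EC.

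Tumor cells differed in how far they held the 9 genes. Slco1c1, Slco1a4, Abcb1a, Cldn5 and Ocln were in OL-like cells at a small share of the EC level in mice 4 and 7, beside that of the endothelial markers. In OL-like tumor cells of mouse 4 the 15 markers were at 0.859% to 3.03% of their EC level (median 1.31%), and these 5 genes were at 0.951% to 1.27%. In mouse 7 the marker median was 0.0426%, and the 5 genes were at 0.0% to 0.11%. Spock2 was at 1.18% in mouse 4 but at 0.261% in mouse 7, above the marker median there.

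Mfsd2a, Slc7a5 and Slc6a6 did not follow the markers. In OL-like cells Mfsd2a was at 3.74%, 4.89%, 6.69% and 4.89% of the EC level in mice 4 to 7, above each of the 15 markers in all 4 mice. Slc7a5 was at 2.53%, 3.77%, 3.06% and 4.22%, above each marker in mice 5, 6 and 7. Slc6a6 was at 4.76%, 2.09%, 28.4% and 17.2%, above each marker in all 4 mice, with an EC level that itself was lower at P70.

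**Figure D3:**
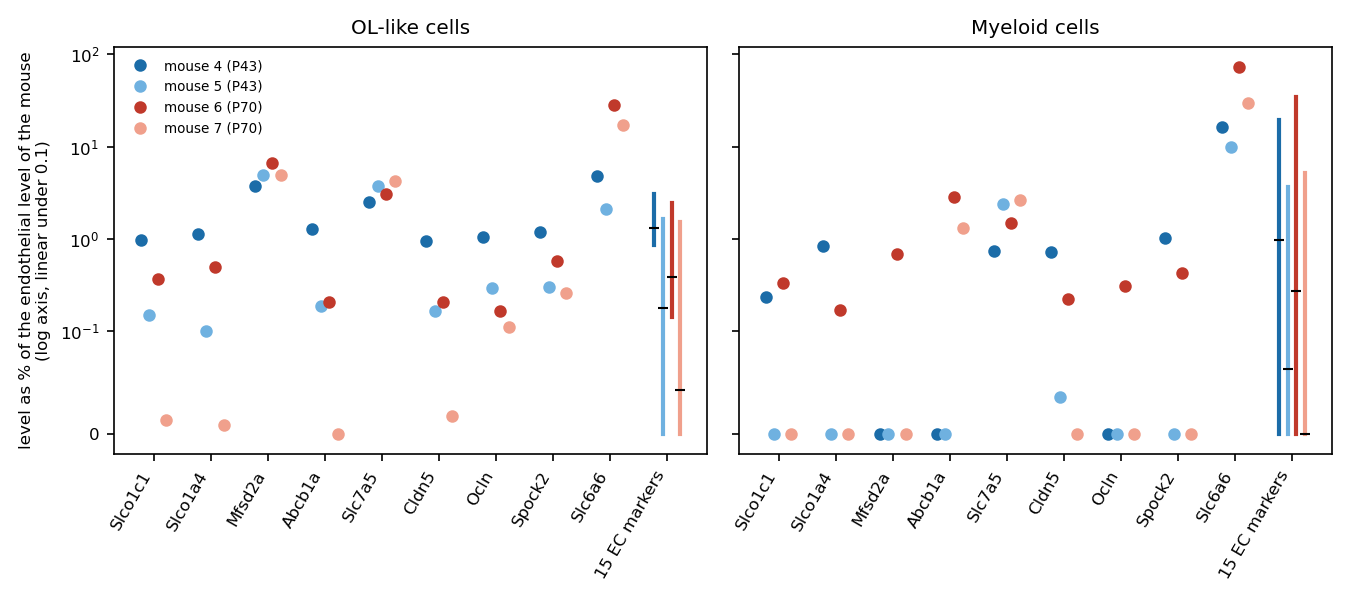
Level of the 9 genes in OL-like cells (left) and Myeloid cells (right) as a percent of the level in the EC of the same mouse (log axis, linear under 0.1), with bars from the lowest to the highest of 15 endothelial markers and a black tick at their median. Mfsd2a and Slc6a6 lie above the marker bars in OL-like cells of every mouse.

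Oligodendrocyte precursor cells (OPC, at least 20 cells in mice 5 and 7) held 258 and 176 CPM of Mfsd2a, compared to 601 and 224 CPM in the EC of the same mice. Over all mice the range of Mfsd2a in EC, 224 to 607 CPM, overlapped that in OPC, whereas each of the other 8 genes had its lowest EC value above the next class. By its mean, Spock2 was second highest in OPC as well, at 155 and 125 CPM (mice 5 and 7). Tight junction genes were not among the genes shared with OPC, where Ocln had no UMI in either mouse.

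Slc6a6 was spread most widely. Its mean was 206 ± 28.1 CPM in mature oligodendrocytes (MOL; SD, n = 3 mice), 192 ± 14.3 CPM in Myeloid cells (n = 4), 186 ± 9.03 CPM in dendritic cells (n = 4) and 166 ± 13.2 CPM in NB-like cells (n = 3). The ranges of neighbours in this order overlapped. In Myeloid cells it was at 210 and 178 CPM at P43 and at 198 and 184 CPM at P70, and the EC of mouse 6 (270 CPM) were close to that level. Slc7a5 was at 85.0 ± 3.85 CPM in fibroblasts (n = 2) and at 45.7 ± 28.4 CPM in NB-like cells (n = 3), compared to 618 ± 104 CPM in EC (n = 4). The fibroblast levels rest on 2 UMIs in mouse 4 and 20 UMIs in mouse 6, so their small SD is no measure of precision. Abcb1a was second highest in Lymphoid cells, at 64.1 ± 38.5 CPM (n = 4).

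Relative to all other cells of the same mouse, with 1 CPM added to both, Cldn5 was 103-fold to 2381-fold and Slco1c1 92.7-fold to 981-fold higher in EC. Slco1a4 was 82.1-fold to 839-fold, Abcb1a 38.3-fold to 453-fold and Spock2 76.2-fold to 220-fold higher. The folds of Ocln (76.3 to 117), Mfsd2a (17.3 to 37.2) and Slc7a5 (16.4 to 35.4) varied less between mice. Slc6a6 was 17.6-fold and 23.2-fold higher in EC at P43 but only 1.98-fold and 5.20-fold higher at P70. The level in other cells enters these folds and itself differed between mice, for Cldn5 from 0.532 CPM in mouse 7 to 61.6 CPM in mouse 4. Ocln was at 3.43 CPM in the other cells of mouse 4, but at 0.682 CPM in mouse 6 and 0.152 CPM in mouse 7. These last levels were under the 1 CPM added, so the small spread of the Ocln folds depends on that addition.

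**Figure D4:**
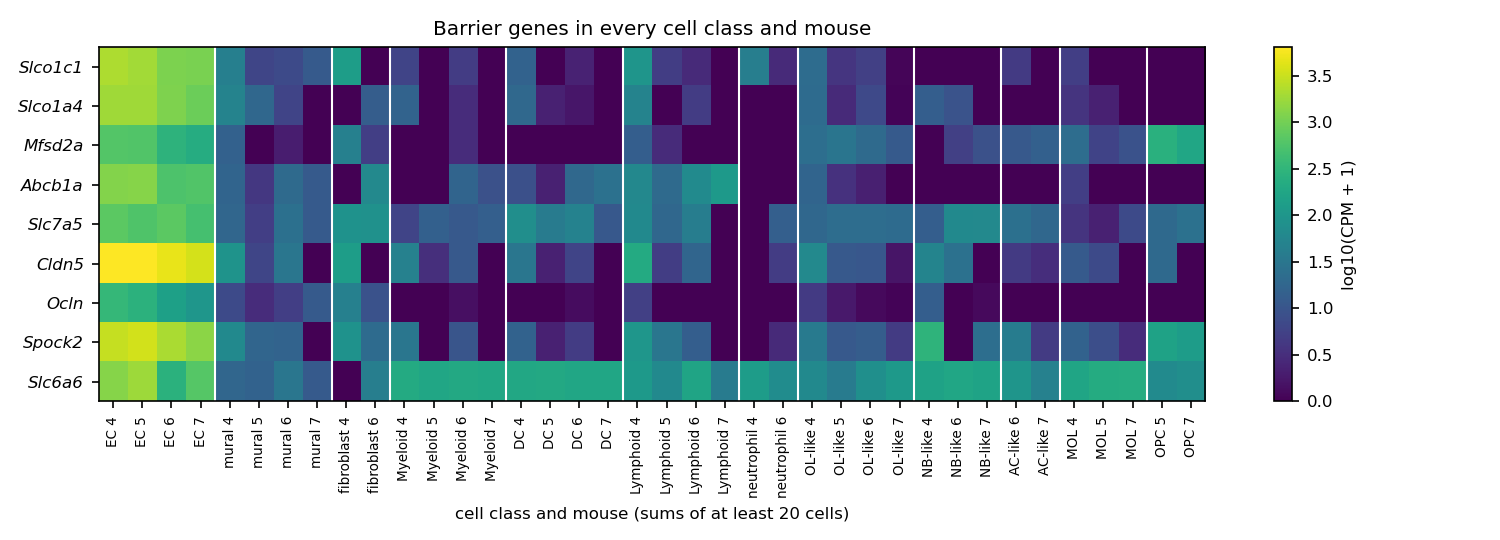
Levels of the 9 genes as log10(CPM + 1) in each cell class and mouse with at least 20 cells. For 8 genes the EC of all mice lie above each other class, while for Mfsd2a the OPC of mouse 5 (258 CPM) lie above the EC of mouse 7 (224 CPM). Slc6a6 is also bright in myeloid, dendritic and oligodendroglial columns.

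The pattern of each gene over 38 sums of a class and mouse was compared with 13117 genes by Pearson's r of log2(CPM + 10), a description over sums that share libraries and depth. Slco1c1 was most like Tek (0.965), Slco1a4 like Grrp1 (0.973), Cldn5 like Adgrl4 (0.968) and Ocln like C130074G19Rik (0.987). Abcb1a was most like Pecam1 (0.923), Spock2 like Bsg (0.924), Mfsd2a like Slc38a3 (0.931) and Slc7a5 like N4bp3 (0.896). Slc6a6 had no gene as close, with Frmd4b at 0.757. The next in rank were Adgrl4 and Wfdc1 for Slco1c1, Slc39a8 and Ptprb for Slco1a4, Slc1a1 and Jam2 for Mfsd2a, Atp10a and Cdh5 for Abcb1a, and Paqr5 and Adgrl4 for Slc7a5. For Cldn5 they were Ly6c1 and Slco1a4, for Ocln Tek, for Spock2 Cldn5 and C130074G19Rik, and for Slc6a6 Crybg3 and Map3k11.

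Within the EC, 5 subclusters were found on genes other than the 9. Subcluster 0 (646 cells) was led by genes such as Car4 and Tfrc, subcluster 2 (159 cells) by the arterial genes Bmx and Sema3g, and subcluster 3 (106 cells) by Apln, Angpt2 and Kit. Subcluster 1 (262 cells) was led by hemoglobin and myelin genes and subcluster 4 (70 cells) by immune and mural genes, with medians of 788.5 and 886.0 UMIs. Subcluster 3 held 6.75% and 8.39% of EC UMIs in mice 4 and 5, but 27.0% in mouse 6 and 48.8% in mouse 7, where these are 6 cells.

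Slc6a6 and Slc7a5 ran against each other across these subclusters. Slc6a6 was at 2525, 3056 and 1387 CPM in subcluster 2 of mice 4, 5 and 6 and at 77.0, 377 and 15.7 CPM in subcluster 3. Slc7a5 was at 157, 272 and 444 CPM in subcluster 2 and at 847, 833 and 934 CPM in subcluster 3. In each of these 3 mice Slc6a6 was highest in subcluster 2 and lowest in subcluster 3, as far as subclusters of at least 20 cells go.

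In subcluster 0, the one with at least 20 cells in all 4 mice, Abcb1a was at 1369 and 1378 CPM at P43 and at 617 and 1063 CPM at P70, and Mfsd2a at 690 and 671 CPM against 253 and 395 CPM. Slco1c1 overlapped there, at 2279 and 2022 CPM against 1210 and 2127 CPM. For Slc6a6 the P43 mice had 1188 and 1660 CPM in subcluster 0. Mouse 6 was far lower, at 228 CPM, whereas mouse 7 came close to the P43 mice with 1124 CPM on 37 UMIs. The fitted change of Slc6a6 in this subcluster was -1.52 and not called. In mouse 7 the 6 cells of subcluster 3, with 48.8% of its EC UMIs, held no UMI of Slc6a6. Their part in its EC level was not tested. In subcluster 2 mouse 6 was not lower than the P43 mice for Slco1c1 (2689 against 2342 and 1813 CPM), Slco1a4 (1925 against 1148 and 1327 CPM), Spock2 (3538 against 2708 and 2836 CPM) or Mfsd2a (576 against 437 and 403 CPM). In subcluster 3 mouse 6 was lower for the same genes, with Slco1c1 at 639 against 2141 and 1441 CPM and Slco1a4 at 356 against 1171 and 991 CPM. Abcb1a was lower in mouse 6 in both, at 1104 against 1592 and 1321 CPM and at 327 against 508 and 547 CPM. Levels of the genes that led a subcluster are not compared.

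**Figure D5:**
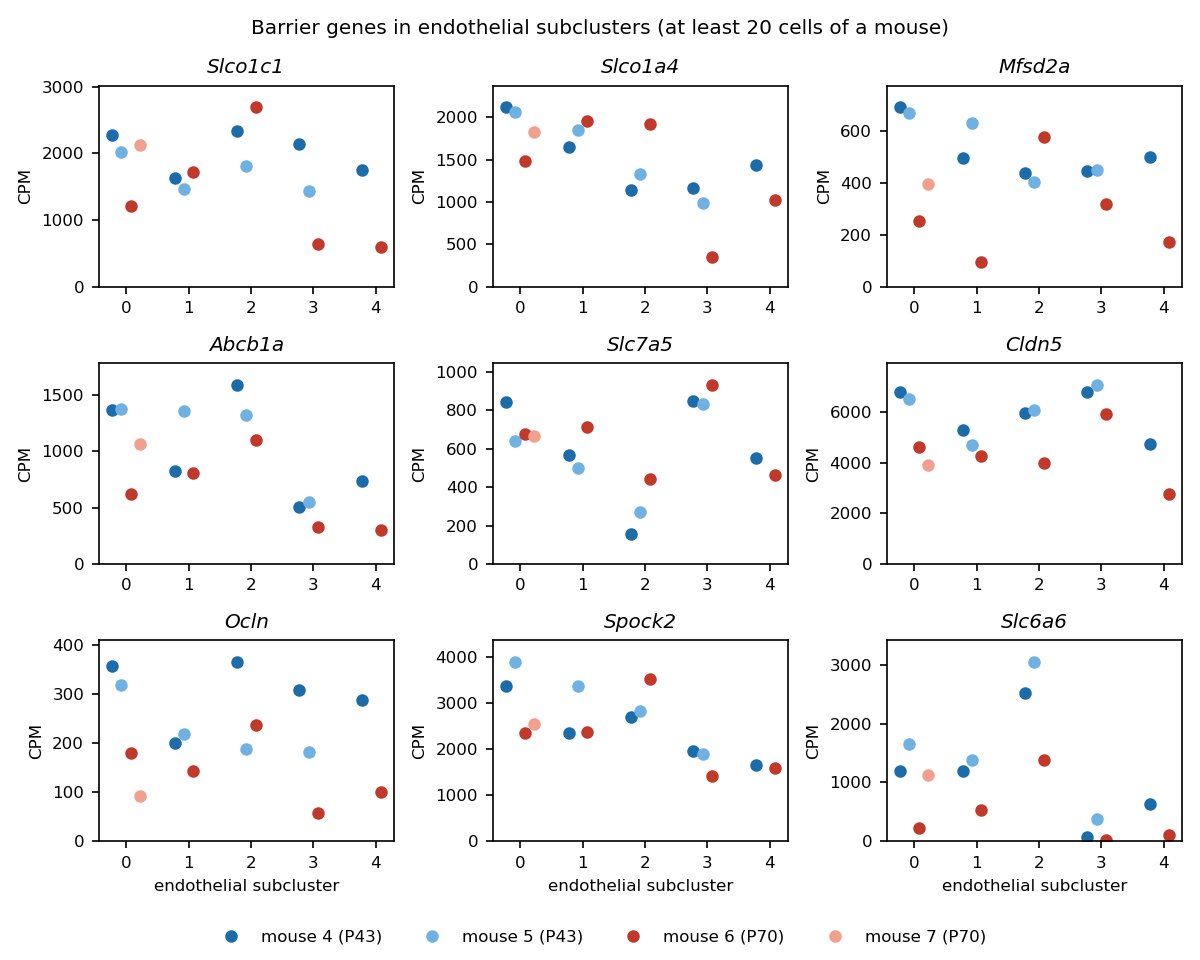
Levels of the 9 genes (CPM) in the endothelial subclusters 0 to 4, for each mouse with at least 20 cells there. Slc6a6 is highest and Slc7a5 lowest in subcluster 2, and mouse 6 lies above both P43 mice there for Slco1c1, Slco1a4, Mfsd2a and Spock2.

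Other genes of the barrier were described from 12 lists with 116 genes beside the 9, of which 100 were tested in EC, 20 were called lower and 11 higher at P70. Over all 8785 genes tested, 3.55% were called lower and 6.07% higher. The lists were chosen with earlier results of these data known, so their counts are a description and no independent support. Of 12 tested junction partners, 1 was lower, Lsr of the tricellular junction (400 and 417 CPM at P43, 167 and 238 CPM at P70, log2 change -1.08, adjusted p = 0.00407), while Pecam1 (0.28) was not called. None of 5 tested ABC transporters was called, Abcg2 having a log2 change of -0.40 and Abcc4 of -0.02. Of 18 solute carriers and partners, 4 were lower, among them the vitamin carrier Slc5a6 (-1.51) and the scaffold protein gene Slc9a3r2 (-1.74). The glutamine carrier Slc38a5 was higher (1.65), with 184 and 238 CPM at P43 and 797 and 265 CPM at P70, and without mouse 6 its change was 0.26 and not called.

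Of 11 tested genes of vesicle transport and receptors, 4 were lower, the transferrin receptor Tfrc (-2.91), the caveolar genes Cav1 (-1.47) and Cav2 (-1.30) and Lsr. Tfrc was at 1169 and 1146 CPM at P43 and at 135 and 182 CPM at P70. Of 15 genes of Wnt signalling to the endothelium, 5 were lower and 1 higher. Those lower included Notum (-2.63), Nkd1 (-2.46) and Axin2 (-2.16), which are induced by and limit Wnt signalling, and Tnfrsf19 (-1.79). Axin2 was at 203 and 227 CPM at P43 and at 39.9 and 83.8 CPM at P70.

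Of 5 Wnt ligands, 1 passed the filter in EC, Wnt5a (0.22, not called), and Ndp had 1 UMI in all EC. Of 10 barrier transcription factors, Sox18 (-1.57) and Klf2 (-0.87) were lower. Of 6 tested pericyte signals, 1 was lower, the angiopoietin receptor Tek (-0.92), and Pdgfb (0.03) was not called. Of 8 arterial genes, Sema3g (-1.27) was lower and Hey1 (-0.75) was not called. Of 7 capillary genes, 4 were lower and 1 higher, with Tfrc, which is also in the vesicle list, Cxcl12 (-2.58), Car4 (-2.27) and Hmcn1 (-0.83) lower.

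Genes of permeability and activation stood on the other side, with 7 of 8 tested higher at P70, beside 6.07% of all genes tested in EC. This list too was chosen with earlier results of these data known, so the count is a description. Among the called genes, Esm1 and Lrg1 passed the filter on low counts only through the P70 mice. For them a call could only be higher, which the share of all genes does not take into account. Angpt2, an antagonist of Tek that loosens vessels, rose by 3.05 on the log2 scale from 47.9 and 57.6 CPM to 297 and 768 CPM. Lrg1 rose by 6.21 and Vwf, the von Willebrand factor gene, by 2.51. Lrg1 held 3, 2, 166 and 3 UMIs in the EC of mice 4 to 7, so its rise rests mainly on mouse 6. Vwf was at 120 and 66.3 CPM at P43 and at 493 and 461 CPM at P70. Esm1 had no UMI at P43 and was at 27.2 CPM (32 UMIs) in mouse 6 and 517 CPM (37 UMIs) in mouse 7. With 3 counts over both P43 mice as the limit that a count of 0 allows, it was at least 26.5-fold higher in mouse 6 and at least 503.0-fold higher in mouse 7. Of 6 tested venous genes 5 were higher, among them Lcn2 (2.81), Vwf, the leukocyte adhesion genes Icam1 (2.44) and Vcam1 (1.89). Vwf, Icam1 and Vcam1 are also in the permeability list and Slc38a5 in that of solute carriers. Of the 5, only Lcn2 is therefore not counted above. Lcn2 was at 20.8 and 11.2 CPM at P43, at 106 CPM in mouse 6 and at 27.9 CPM (2 UMIs) in mouse 7. It was also a leading gene of the neutrophil cluster, and a part of neutrophil RNA in its level was not tested. Icam1 and Vcam1 were clearly higher in both P70 mice. Angpt2 belongs to the genes that led subcluster 3.

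The same genes were looked at in cells other than EC. In mural cells, where 6 of the 9 passed the filter, 8.75% of 8519 genes were called lower and 10.3% higher. Slco1a4 was called lower (log2 change -2.51, SE 0.717, adjusted p = 0.0199) on 31, 17, 5 and 0 UMIs, and none of the other 5 was called. It was not called when mouse 4, mouse 6 or mouse 7 was left out, and DESeq2 called none. Mural Slco1a4 was at 2.67%, 0.967%, 0.429% and 0.0% of the EC level in mice 4 to 7. The median of the 15 endothelial markers in mural cells was 1.88%, 0.972%, 2.12% and 0.0%. Whether the mural UMIs of Slco1a4 are RNA of EC was not tested. In OL-like cells, where 8 passed, edgeR called no gene at all, 0.0% lower and 0.0% higher of 11709, with 539 genes at an unadjusted p under 0.05, and DESeq2 called 18 higher and 28 lower, none of the 9 among them. In Myeloid cells only Slc6a6 passed the filter, with a log2 change of 0.06 (SE 0.281, adjusted p = 0.982), where 0.0761% of 5254 genes were called lower and 0.0761% higher.

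Whether the change with age differed between EC and another class was tested with the mouse as a block, EC being the class whose change chose the members. Against mural cells it differed for 3 of the 9, where 9.03% of 10229 genes differed. The filter on low counts took both classes together here. Slco1c1, Mfsd2a and Ocln did not pass it in mural cells alone, where 8519 genes did, nor did Ocln in OL-like cells alone. The change of Slc6a6 in EC was lower by 3.27 on the log2 scale (difference -3.27, SE 0.502, adjusted p = 7.11e-09), that of Abcb1a lower (difference -2.40, SE 0.603, adjusted p = 0.00172), and that of Slco1a4 higher (difference 1.97, SE 0.686, adjusted p = 0.0462). Against OL-like cells it differed for Slc6a6 (difference -2.78, SE 0.455, adjusted p = 0.00617), where 0.6% of 11843 genes differed. In OL-like cells Slc6a6 was at 62.1 and 37.1 CPM at P43 and at 76.8 and 108 CPM at P70. The difference of Slco1a4 against mural cells was 1.27 without mouse 4 and 2.63 without mouse 5. That of Abcb1a was -3.68 without mouse 4 and -1.46 without mouse 5. Without mouse 6 the differences of Slc6a6, Abcb1a and Slco1a4 against mural cells were -0.93, -1.62 and 6.36. That of Slc6a6 against OL-like cells ran from -3.40 without mouse 4 to -2.19 without mouse 5. Each of these fits has 1 mouse at 1 age, and no difference stayed called in all of them.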

How the data were processed

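Droplet-based 3′ single-cell libraries of 4 tumors were analysed from raw UMI counts per gene and barcode, which the authors deposited after aligning the reads to mm10 with Cell Ranger 6.0.2 and which carry no normalization. Cells with at least 200 genes, under 25% mitochondrial UMIs and at most 40000 UMIs were clustered with Seurat 5.3.0 in R 4.3.3 (2000 variable genes less 60 members and listed barrier genes, anchor integration, 30 components, resolution 0.5) and named from marker lists. Doublets were not called, and EC with at least 2 mural or myeloid marker genes were left out as an alternative. Counts were summed per class and mouse and tested with edgeR 4.0.16 (TMM, filterByExpr, quasi-likelihood test, Benjamini-Hochberg, 0.05). On simulated EC counts of 8436 genes, 79% of 200 genes given a 4-fold change were recovered, with 12 false calls. Smaller changes, such as those of the 9 genes, were not simulated. Alternatives were DESeq2 1.42.0, other filters, clusters and cells, and leaving out each mouse. Named genes were the 9 members, for each list up to 4 called genes of largest change (or its most abundant, up to 2), and the 3 genes most like each member, of which 2 genes in all are not reported here. The members and lists were chosen with earlier results of these data known. Replicate numbers follow accession order and pair nothing. P-values of edgeR rest on a spread that is moderated over all genes tested. With 2 mice per age they are not a measure of the spread of a single gene between mice.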

Additional observations from a re-analysis of the deposited data

Results flagged for a closer look

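The change with age in EC differed from that in another class for 3 of the 9 genes, by the test of the difference itself. Since the members were chosen on their change in EC, which is 1 arm of this difference, the count is a description and no independent support. It stands beside 9.03% of 10229 genes that differed against mural cells and 0.6% of 11843 against OL-like cells. Slco1c1, Mfsd2a and Ocln are among the 9 here although they did not pass the filter in mural cells alone. For Slc6a6 the difference was -3.27 against mural cells and -2.78 against OL-like cells on the log2 scale. For Abcb1a it was -2.40 against mural cells, whose sums held 10, 3, 19 and 1 UMIs of this gene in mice 4 to 7. For Slco1a4 it was 1.97 against mural cells, on 31, 17, 5 and 0 UMIs, with the mural sums falling further than those of EC. These mural levels were near the median share of the endothelial markers in mice 4, 5 and 7 and below it in mouse 6. Whether they are RNA of EC was not tested. Mural sums of Slc6a6 held 11, 14, 30 and 1 UMIs. The differences against mural cells depended on single mice, and those of Abcb1a and Slco1a4 not on mouse 6 alone. For Slc6a6, Abcb1a and Slco1a4 they were -3.41, -3.68 and 1.27 without mouse 4 and -2.80, -1.46 and 2.63 without mouse 5. Without mouse 6 they were -0.93, -1.62 and 6.36, and without mouse 7 -3.57, -2.49 and 1.87.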

How the results depend on the processing

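In EC, the named genes of the lists gave 568 values, 45 of them no longer past the limit and none reversed. The 9 genes gave 162 values under 18 alternatives, of which 131 kept direction and side of the limit, 19 were no longer past it, 12 newly passed it and none changed direction while called. Fitted changes ranged from -1.49 to -0.93 for Mfsd2a, from -2.39 to -1.35 for Slc6a6 and from -0.44 to 0.28 for Slc7a5. They ranged from -1.09 to -0.35 for Slco1c1 and from -1.11 to -0.28 for Slco1a4. Members called lower were 5, and 3 with DESeq2, 3 with EC thinned to 1000 UMIs, 1 in subcluster 0 alone, 2 without subcluster 3, and 1 to 8 when 1 mouse was left out. Subclusters, scaling by library size and the differences between classes without 1 mouse were added after seeing the data. Genes called higher and lower in EC were 533 and 312. They were 170 and 62 with DESeq2, 125 and 86 with thinned cells, 223 and 141 in subcluster 0, and 326 and 211 without subcluster 3. Leaving out 1 mouse gave 204 to 865 and 117 to 565. Scaling by library size gave 468 and 428, or 52.2% instead of 63.1% of calls higher, and moved the median of all genes from -0.03 to -0.14, with 7 members called. Listed barrier genes were 11 higher and 20 lower. They were 17 higher with no filter on low counts, 10 lower with DESeq2, 6 and 13 with thinned cells and 11 lower in subcluster 0, and 6 to 17 and 12 to 30 without 1 mouse. In mural cells 1 member was called, 0 with DESeq2 and 0 to 4 without 1 mouse, and the change of Cldn5 (-0.43, not called) was 2.48 and called without mouse 4, a change of sign, and -7.52 and not called without mouse 6. In Myeloid cells 0 were called, and 1 with no filter, Abcb1a, higher at P70 on 0, 0, 71 and 3 UMIs in mice 4 to 7. Members differing from mural cells were 3 and from OL-like cells 1, and which members were called changed with the mouse left out. The median log2 level in EC over other cells was 7.18, and 6.43 at resolution 1.0, 5.96 without integration and 5.70 with 10 CPM added. The mean share of EC with a UMI was 31.5 percentage points lower at P70, written -31.5, and -18.7 at 1000 UMIs and -17.8 without thinning. The causes of these shifts were not tested. Thinning and subclusters leave fewer UMIs and a changed mix of EC, and fitted changes shifted as well. Without subcluster 3 they were -0.35 for Slco1c1, -0.28 for Slco1a4 and -0.77 for Abcb1a, compared to -0.79, -0.70 and -1.08. That of Cldn5 was larger, -0.67 compared to -0.52. With 36 EC in mouse 7, a gene without a UMI there may lie at up to 41.9 CPM. The ages could not be paired because the P43 and P70 tumors came from different mice.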

Other observations

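Of the permeability genes that were not tested, Plvap, a gene of fenestrated vessels, had 0 UMIs in the EC of both P43 mice and 10 and 7 UMIs in those of mice 6 and 7. Ackr1, a gene of venules, had 182 UMIs in the EC of mouse 6 and 0 in the other 3 mice.

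Of the Wnt ligands of the brain, Wnt7b was found in OPC at 45.1 CPM (7 UMIs, mouse 5) and 34.7 CPM (15 UMIs, mouse 7), and Wnt7a at 19.4 CPM (3 UMIs, mouse 5) and 11.6 CPM (5 UMIs, mouse 7). Wnt3 was found in MOL at 45.1, 52.5 and 74.3 CPM in mice 4, 5 and 7. In OL-like cells it was at 8.5, 20.4, 13.1 and 12.5 CPM in mice 4 to 7, on 82, 100, 56 and 351 UMIs. Wnt7a, Wnt7b and Wnt3 had no UMI in the EC of any mouse.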
